A study of Homo sapiens with 6 samples.

Results

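The 39 genes described here are the listed members of the ATF4 programme, which is the transcriptional arm of the integrated stress response. They were taken from the count table by matching Ensembl identifiers to the listed symbols, with no measured value in the rule. The list itself was chosen with earlier results of these data known. The table held 38 of them among 27264 gene rows, and CBS was not analysed here. Of these 38, 34 passed the filter on low counts and entered the tests over 11732 genes.

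In the integrated stress response, kinases that sense missing amino acids, unfolded protein, viral RNA or heme shortage phosphorylate the translation factor eIF2. Most protein synthesis then slows, while the transcript of ATF4, a leucine zipper transcription factor, is translated more. ATF4 pairs with C/EBP family partners on a composite DNA element and switches on genes for amino acid synthesis and import, for charging tRNAs and for feedback on the response. ATF4 is controlled in large part at translation, so its mRNA level is not a measure of its protein.

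The libraries came from DLD-1, an established human epithelial cell line from a colorectal cancer, in a study of epithelial-to-mesenchymal transition driven by the zinc finger repressor ZEB2. The labels name 3 clones, WT2, WT5 and WT37, all carrying the genotype label ZEB2 WT, and the design text treats the clones as the biological replicates. Each clone gave 1 library without DOX, called epithelial in the labels, and 1 with DOX, called mesenchymal. DOX is the usual short form of doxycycline, a drug used to switch on inducible constructs. Dose and duration were not given in the sources used here, and 0 libraries with DOX from cells lacking the construct were listed, so an effect of DOX alone cannot be told apart from an effect of ZEB2. The labels do not say whether the libraries came from separately grown cultures, so p-values measure only the spread between these libraries.

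Reads were counted at transcript 3' ends, and 5440093 to 7164426 reads per library fell in genes. Levels are given as CPM, the count of a gene scaled to the reads in genes of its library. The 8 epithelial markers, among them EPCAM, KRT18 and CDH1, summed to 4459 to 8135 CPM, and the sum was lower with DOX in each clone. Without and with DOX it was 8135 and 5564 CPM in WT2, 6676 and 5679 CPM in WT5, and 6889 and 4459 CPM in WT37. The drop was thus smallest in WT5. CDX2, one of the 8, went the other way and was called higher with DOX (log2 fold change 0.42, edgeR adjusted p = 0.0464 with the clone as a block). The 5 fibroblast markers summed to at most 1.83 CPM and the 2 endothelial markers to at most 0.496 CPM. The 4 leukocyte markers summed to 4.23 to 10.5 CPM, nearly all from CD14, which was at 4.04 and 4.49 CPM in WT2 and at 8.26 to 9.76 CPM in the other 4 libraries. ZEB2 was not called (log2 fold change with DOX 1.38, adjusted p = 0.225 by edgeR's quasi-likelihood test with the clone as a block and Benjamini-Hochberg adjustment).

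The proximal promoters of some members carry the letters of the composite element to which ATF4 and its C/EBP partners bind, and these are shown because the element is the known binding site of the factor that gives the list its name. TGATGNAA was searched on both strands, from 250 bases before to 50 bases after the start of each RefSeq gene on build GRCh38.p14, and its reverse complement is TTNCATCA. It was present in 9 of the 30 members with a promoter entry (30%), against 1270 of 35116 promoters of the same length (3.62%) and 1.56% of the tested genes with an entry. The stretches below run 5' to 3' on the strand of the gene, with the match in capitals. For CARS1, MARS1, TARS1 and NARS1 the match lies across or just after the start, and the stretch ends with it.
ASNS: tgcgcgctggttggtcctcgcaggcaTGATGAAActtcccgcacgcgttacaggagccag
CHAC1: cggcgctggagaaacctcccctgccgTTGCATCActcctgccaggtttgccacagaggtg
ATF3: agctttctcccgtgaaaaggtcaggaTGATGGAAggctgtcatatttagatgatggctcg
AARS1: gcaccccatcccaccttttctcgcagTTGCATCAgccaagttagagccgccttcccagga
IARS1: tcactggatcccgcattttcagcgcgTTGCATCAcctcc
CARS1: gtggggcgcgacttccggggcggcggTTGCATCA
MARS1: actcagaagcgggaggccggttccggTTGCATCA
TARS1: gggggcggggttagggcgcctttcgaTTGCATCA
NARS1: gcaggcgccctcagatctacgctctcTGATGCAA

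These stretches lie at chr7:97872443-97872502, minus strand, for ASNS, at chr15:40953236-40953295, plus strand, for CHAC1, at chr1:212565190-212565249, plus strand, for ATF3, and at chr16:70289660-70289719, minus strand, for AARS1. Those of the other synthetases lie at chr9:92293698-92293736, minus strand, for IARS1, at chr11:3057418-3057451, minus strand, for CARS1, at chr12:57488038-57488071, plus strand, for MARS1, at chr5:33440941-33440974, plus strand, for TARS1, and at chr18:57621815-57621848, minus strand, for NARS1. The match in ASNS begins 68 bases before the start, where the amino acid response element of this gene is known to lie. Among the members' tRNA synthetases 6 of 10 with an entry held the letters, 2 of the 10 when only the bases before the start were searched. Of the other cytosolic synthetases 0 of 6 held them, which is near the 1.56% of tested genes. Outside the members, 3 of 9 amino acid transporters (33.3%) and 3 of 12 further ATF4 targets (25%) held them, the transporters 0 of 9 before the start. The eIF2 genes had 1 of 16, the mitochondrial synthetases 1 of 14, the other enzymes 1 of 10 and the mitochondrial chaperones and proteases 0 of 8. ATF4, TRIB3, PHGDH, PSAT1, MTHFD2 and SESN2 had none in this window, which says only that these letters are not there. The members' share fell to 16.7% when only the bases before the start were searched, against 3.14% of all promoters. With the longer motif TGATGCAAT it was 3.33%, against 0.236%. No entry was found for ALDH1L2, EIF4EBP1, LARS1, NUPR1, PSPH, PYCR1, SHMT2 and YARS1.

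Between clones 12 of the 34 tested members (35.3%) were called, against 6.84% of all tested genes. With DOX, 2 members were called with the clone as a block (5.88%, against 1.3%) and 0 without (against 0%). Calls were thus more frequent between clones than with DOX over all tested genes too. Summed over the 38 genes in the table, the members took 2757 and 2936 CPM in WT2 without and with DOX, 3822 and 4249 CPM in WT5, and 3707 and 4023 CPM in WT37. Both WT2 libraries lay below every library of the other clones. Gene by gene, both WT2 libraries were below the other 4 in 20 of the 34 tested members (58.8%), against 13.7% of all tested genes, and above them in 0 members, against 4.56% of all tested genes. This rank pattern was chosen after the levels had been seen.

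**Figure D1:**
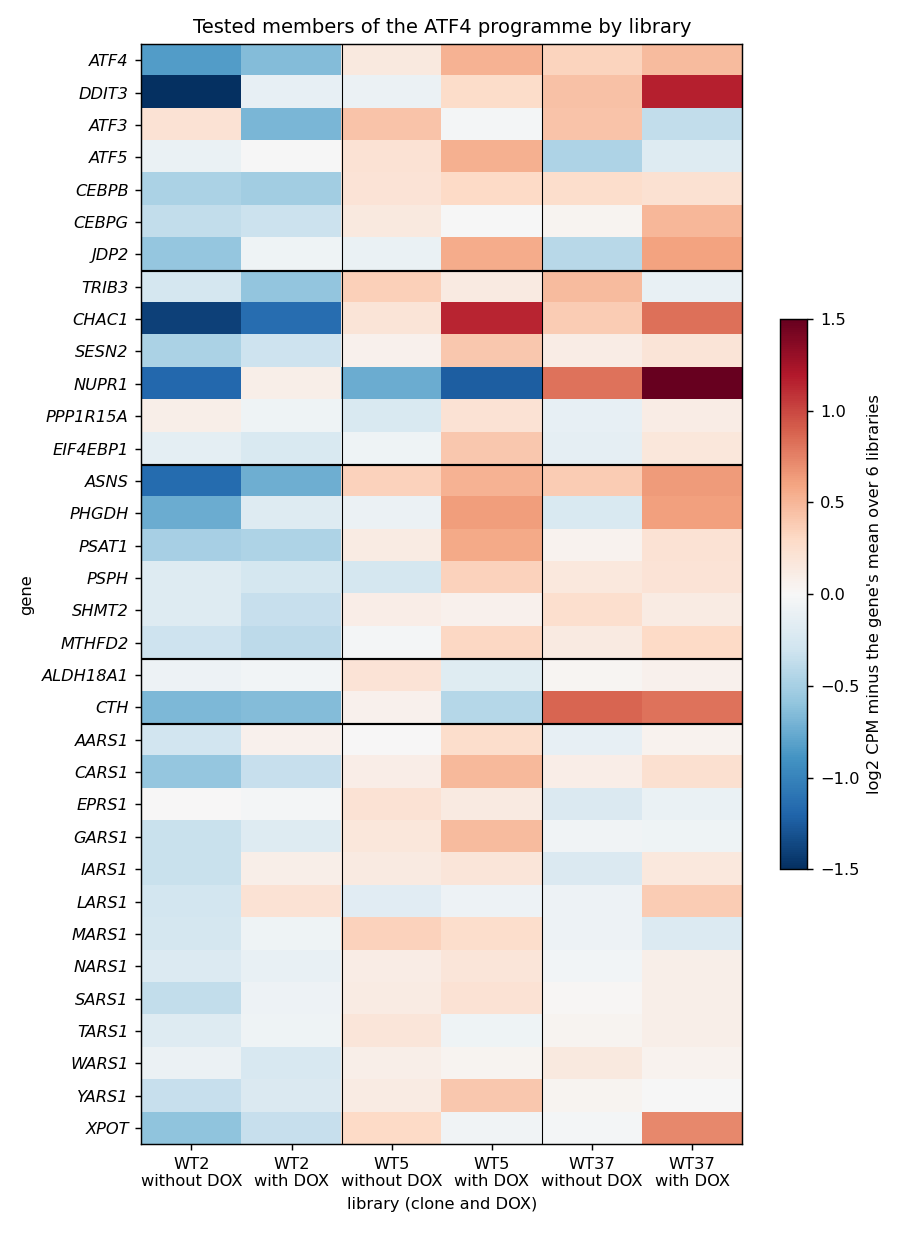
Levels of the 34 tested members in the 6 libraries, as log2 CPM minus the mean of the gene over the libraries (colour, limited to 1.5 either way), with genes on the vertical axis in 5 role groups and libraries on the horizontal axis. The 2 WT2 columns on the left are blue for most genes, with both WT2 libraries below the other 4 in 20 of 34.

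The clone effect was tested over both clone coefficients in a fit that also had a DOX term, which takes the DOX effect to be equal in the clones. It was called for 802 of 11732 genes (6.84%; 24.8% at an unadjusted p under 0.05) and for 12 of the 34 tested members (35.3%). WT5 was higher than WT2 in 8 members and lower in 0, where 0.682% of all tested genes were called higher and 0.341% lower. The median log2 fold change of WT5 over WT2 was 0.41 over the tested members and 0.0033 over all genes. WT37 was higher than WT2 in 10 members and lower in 0, where 3.15% of all tested genes were called higher and 2.68% lower, with medians of 0.30 and 0.0074. Both comparisons use the same WT2 libraries. Between WT37 and WT5, where 5.92% of tested genes were called (3.17% higher, 2.74% lower), 2 members were higher in WT37 and 1 was lower, and the members' median was -0.14.

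Calls of several members rested on single libraries. Leaving out the WT2 library without DOX left 5 members called for WT5 over WT2 and 3 for WT37 over WT2, and leaving out the other WT2 library left 3 and 4. For WT37 over WT2 the count was also 5 without the WT37 library without DOX, 3 without the one with DOX, and 16 without WT5 or without its library with DOX alone. Calls for ATF4, CHAC1 and ASNS against WT2 were kept in all 14 alternatives run for each pair.

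ATF4, the factor that gives the programme its name, stood at 157 and 178 CPM in WT2 (without and with DOX), at 311 and 402 CPM in WT5 and at 353 and 389.7 CPM in WT37. Both WT2 libraries were thus the lowest by a wide margin, and the libraries of WT5 and WT37 overlapped. ATF4 was 1.04 ± 0.12 higher (log2 fold change ± SE) in WT5 than in WT2 (adjusted p = 0.000812 by the edgeR quasi-likelihood test with Benjamini-Hochberg adjustment, as for every adjusted p given). In WT37 it was 1.03 ± 0.12 higher than in WT2 (edgeR, adjusted p = 0.000438), and WT37 and WT5 were not told apart (-0.0090 ± 0.11, edgeR adjusted p = 0.975).

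CEBPB encodes one of the C/EBP partners. It was at 39.5 and 38.2 CPM in WT2, 63.1 and 67.2 CPM in WT5, and 65.6 and 64.2 CPM in WT37, again with WT2 lowest. The difference was 0.71 ± 0.14 for WT5 over WT2 (edgeR, adjusted p = 0.0315) and 0.62 ± 0.14 for WT37 over WT2 (edgeR, adjusted p = 0.0236). Both calls were lost without either WT2 library, with DESeq2 and without the DOX term, the first also without the WT5 library with DOX and the second without either WT37 library. CEBPG, another partner, lay at 40.8 and 42.3 CPM in WT2 and 52.6 to 74.7 CPM elsewhere, and its clone effect was not called (edgeR, adjusted p = 0.121).

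ATF5, a stress-induced relative of ATF4 that is also controlled by translation, followed another order. Its levels were 46.1 and 48.9 CPM in WT2, 57.3 and 71.5 CPM in WT5, and 35.9 and 43.1 CPM in WT37, so that WT37 was lowest. It was lower in WT37 than in WT5 by 0.78 on the log2 scale (SE 0.14, edgeR adjusted p = 0.00851), a call lost without the WT37 library with DOX. DDIT3, which encodes the pro-apoptotic factor CHOP, had 83 reads over all libraries, with 3 and 10 in WT2, 10 and 15 in WT5, and 17 and 28 in WT37. At that depth its clone effect was not called (edgeR, adjusted p = 0.182), and its last exon overlaps that of MARS1 on the other strand, so its reads cannot be told apart from those of MARS1 if strand was not used in counting.

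**Figure D2:**
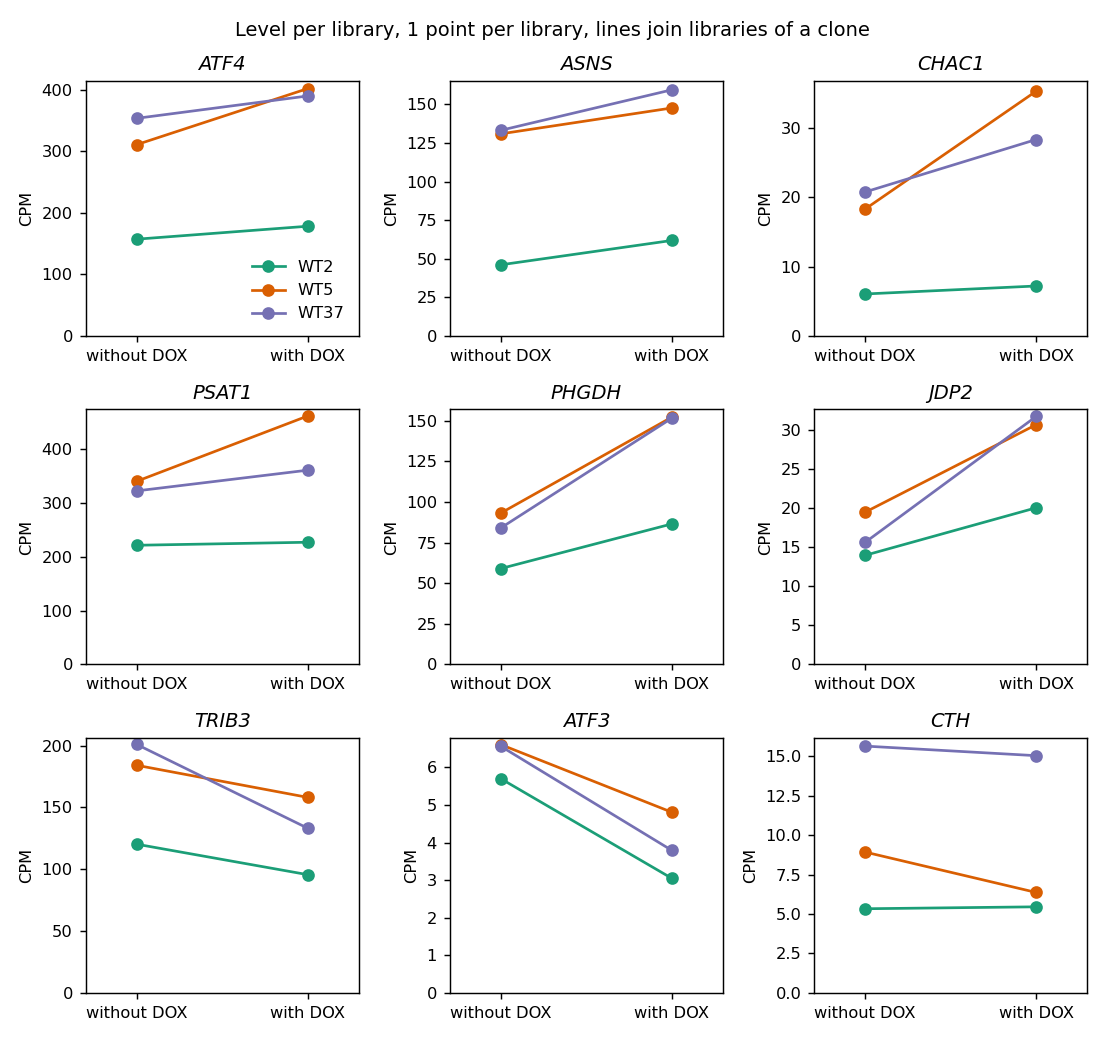
Levels in CPM (vertical axes, each from 0) of 9 members in the 6 libraries, 1 point per library, with lines joining the libraries of a clone without and with DOX. ATF4, ASNS and CHAC1 show WT2 far below the other clones at both conditions, PHGDH and JDP2 rise along every line, and TRIB3 and ATF3 fall along every line.

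Among the outputs of the response, CHAC1, which encodes an enzyme that degrades glutathione, showed one of the widest separations. It was at 6.07 and 7.22 CPM in WT2, 18.3 and 35.3 CPM in WT5, and 20.8 and 28.4 CPM in WT37. The log2 fold change was 1.95 ± 0.23 for WT5 over WT2 (edgeR, adjusted p = 0.00131) and 1.77 ± 0.23 for WT37 over WT2 (edgeR, adjusted p = 0.00128). TRIB3, a pseudokinase that is induced by ATF4 and restrains it, was at 120.2 and 95.6 CPM in WT2, 184 and 158 CPM in WT5, and 201 and 133 CPM in WT37. It was higher than in WT2 by 0.63 ± 0.13 in WT5 (edgeR, adjusted p = 0.0402) and by 0.50 ± 0.13 in WT37 (edgeR, adjusted p = 0.0436), and both calls were lost without either WT2 library, with limma-voom and without the DOX term, the first also without the WT5 library with DOX and the second without either WT37 library and with DESeq2.

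NUPR1, which encodes a small stress-induced chromatin protein, had 4 and 11 reads in WT2, 6 and 5 in WT5, and 21 and 56 in WT37. WT37 was thus the only clone with more than 11 reads in a library. Its log2 fold change was 1.94 ± 0.48 for WT37 over WT2 (edgeR, adjusted p = 0.0360) and 2.52 ± 0.51 for WT37 over WT5 (edgeR, adjusted p = 0.0159). The call against WT2 was lost without any 1 of the 4 libraries of these clones, and the call against WT5 without the library with DOX of either clone. Both were also lost with DESeq2 and without the DOX term.

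SESN2, which encodes a leucine sensor that restrains mTORC1, was at 37.7 and 42.0 CPM in WT2 and at 54.7 to 69.3 CPM in the other libraries, without overlap, and its clone effect did not pass (edgeR, adjusted p = 0.0555). EIF4EBP1, which encodes a repressor of cap-dependent translation, ranged from 40.4 to 62.8 CPM. PPP1R15A, which encodes the subunit that directs dephosphorylation of eIF2, ranged from 46.3 to 62.9 CPM, with WT2 libraries among the others. DDIT4, an mTORC1 inhibitor gene, had 36 reads in all and was not tested, and STC2, which encodes a secreted glycoprotein, had 0 reads in every library, which allows up to 3 reads per library for counting error.

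Of the genes for asparagine, serine and one-carbon synthesis, 3 of 6 tested were called higher than WT2 in WT5 and the same number in WT37. ASNS, asparagine synthetase, was at 46.1 and 61.9 CPM in WT2, 131 and 148 CPM in WT5, and 133 and 160 CPM in WT37. Both WT2 libraries lay far below the other 4. It was 1.33 ± 0.12 higher in WT5 (edgeR, adjusted p = 0.000191) and 1.32 ± 0.12 higher in WT37 (edgeR, adjusted p = 0.000123) than in WT2. All of the last transcript bases of ASNS (100%) overlap exons of another annotated gene on the same strand, so its count is uncertain.

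PHGDH catalyses the first step of serine synthesis from glycolysis. Its levels were 59.0 and 86.5 CPM in WT2, 93.2 and 152 CPM in WT5, and 84.0 and 152 CPM in WT37, so it varied with both clone and DOX. It was 0.70 ± 0.12 higher in WT5 (edgeR, adjusted p = 0.0167) and 0.55 ± 0.12 higher in WT37 (edgeR, adjusted p = 0.0261) than in WT2. PSAT1, the next enzyme of serine synthesis, was at 222 and 227 CPM in WT2, 340.5 and 462 CPM in WT5, and 323 and 361 CPM in WT37, with WT2 lowest at both conditions. The difference was 0.79 ± 0.12 for WT5 (edgeR, adjusted p = 0.00761) and 0.49 ± 0.12 for WT37 (edgeR, adjusted p = 0.0406). Without the WT2 library with DOX the WT5 calls of PHGDH and PSAT1 were lost, and without any 1 of the 4 libraries of WT2 and WT37 so were their WT37 calls. With DESeq2 and without the DOX term the WT37 calls were lost too, and without the DOX term the WT5 call of PHGDH.

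The remaining enzymes of the group did not pass. MTHFD2, the mitochondrial folate enzyme, was at 206 and 194 CPM in WT2 and at 252 to 317 CPM elsewhere (clone effect, edgeR adjusted p = 0.0598). SHMT2, which transfers the one-carbon unit from serine in mitochondria, was at 150.2 and 135 CPM in WT2 and 179 to 204 CPM elsewhere (edgeR, adjusted p = 0.133). PSPH, the last enzyme of serine synthesis, overlapped between clones at 35.8 to 54.9 CPM (edgeR, adjusted p = 0.492). ALDH1L2 had 4 reads in all and was not tested.

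CTH, cystathionine gamma-lyase, which makes cysteine from cystathionine, was higher in WT37 than in each of the other clones. It was at 5.33 and 5.45 CPM in WT2, 8.92 and 6.36 CPM in WT5, and 15.6 and 15.0 CPM in WT37. The log2 fold change was 1.38 ± 0.25 over WT2 (edgeR, adjusted p = 0.00888) and 0.94 ± 0.23 over WT5 (edgeR, adjusted p = 0.0371). The first was lost without the WT2 library without DOX or the WT37 library with DOX, and the second without WT2, without the WT5 library with DOX or without either WT37 library, and also with DESeq2, with limma-voom and without the DOX term. ALDH18A1, the first enzyme of proline synthesis, did not separate the clones (131 to 171 CPM), and PYCR1, the last one, had 8 reads in all and was not tested.

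The tRNA synthetases attach amino acids to tRNAs, and XPOT exports tRNAs from the nucleus. Of these 13 genes 2 had a clone effect. CARS1, the cysteinyl-tRNA synthetase, was at 86.0 and 101 CPM in WT2, 138 and 180.1 CPM in WT5, and 138 and 153 CPM in WT37, and it was higher than in WT2 by 0.72 ± 0.12 in WT5 (edgeR, adjusted p = 0.0127) and by 0.52 ± 0.12 in WT37 (edgeR, adjusted p = 0.0291). Both calls were lost without either WT2 library and without the DOX term, and the second without either WT37 library and with DESeq2. GARS1, the glycyl-tRNA synthetase, was at 74.1 and 82.0 CPM in WT2, 105 and 130.1 CPM in WT5, and 89.7 and 89.0 CPM in WT37 (clone effect, edgeR adjusted p = 0.0384), with none of its pairs called, and the call was lost without either WT2 library, without the WT5 library with DOX or without the WT37 library with DOX.

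The other synthetases differed less. Both WT2 libraries were below the other 4 in 6 of the 12 member synthetases (50%) and in 0 of 8 cytosolic synthetases outside the list, against 13.7% of all tested genes, so that the count of 0 among 8 is near that share. The median log2 fold change of the 12 was 0.25 for WT5 over WT2 and 0.068 for WT37 over WT2, and that of the 8 was 0.020 and -0.31. These medians are descriptions, and their difference was not tested. The 17 mitochondrial synthetases, which charge tRNAs in another compartment, had medians of 0.0011 and 0.15. By edgeR 0 of them had a clone effect called, and 4 were at an unadjusted p under 0.05. Of all tested genes 6.84% and 24.8% were, so both counts are near those shares.

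**Figure D3:**
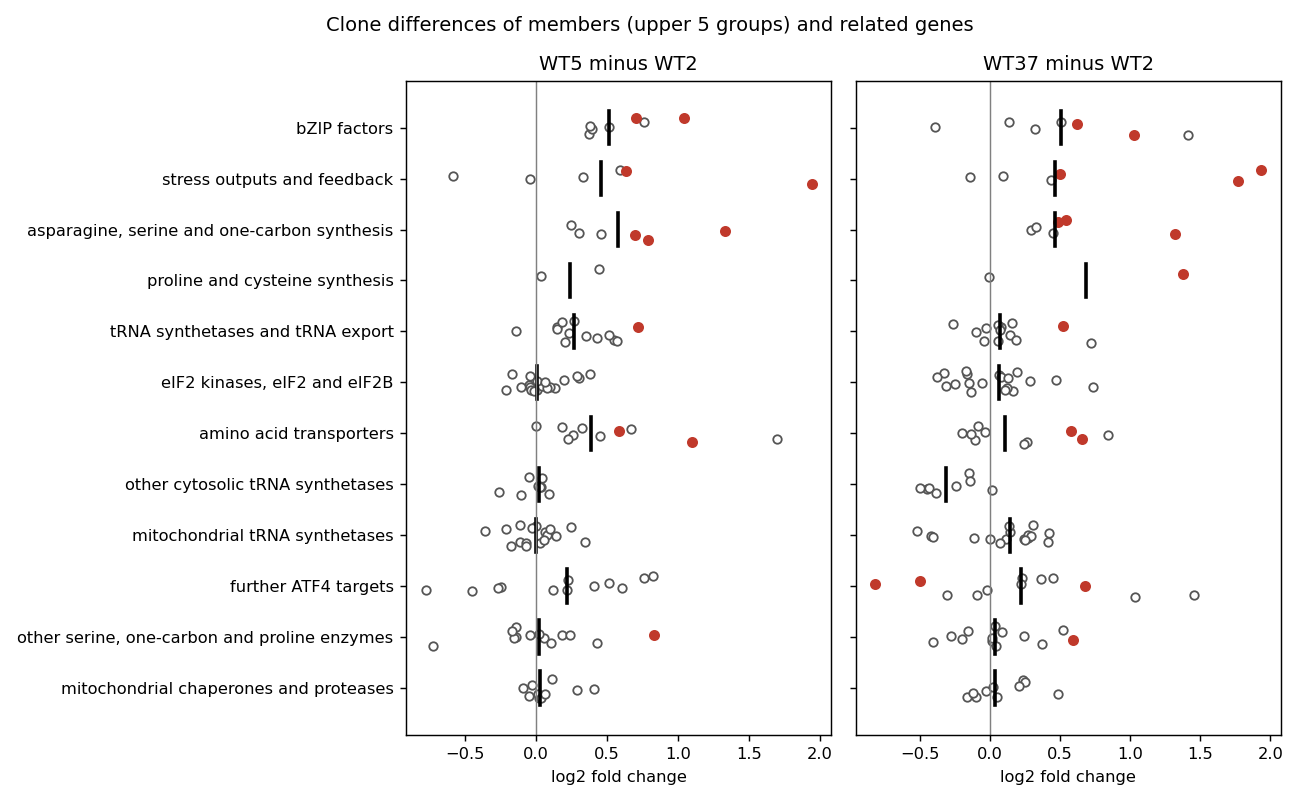
Log2 fold changes (horizontal axes) of WT5 over WT2 and of WT37 over WT2 for tested members, in the upper 5 rows, and for related gene lists below them, 1 point per gene with vertical bars at the list medians. Filled points are genes called by edgeR, as were 1.02% of all tested genes for WT5 over WT2 and 5.83% for WT37 over WT2. All 18 filled points in the member rows lie to the right of 0. Every member filled in the WT5 panel is also filled in the WT37 panel, and both panels use the same WT2 libraries. The rows of eIF2 genes and of other synthetases hold none, which is near those shares. The rows of transporters, further targets and other enzymes hold some.

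Related genes outside the list were read off the same fit. Of 10 tested amino acid transporters 4 had a clone effect. SLC7A5, the light chain of the leucine transporter LAT1, was at 409.7 and 372 CPM in WT2, 755 and 973 CPM in WT5, and 657 and 681 CPM in WT37, and was higher than in WT2 by 1.10 ± 0.13 in WT5 (edgeR, adjusted p = 0.00131) and 0.65 ± 0.13 in WT37 (edgeR, adjusted p = 0.0144). SLC7A11, the cystine importer, was 0.58 ± 0.15 higher in WT37 than in WT2 (edgeR, adjusted p = 0.0438), and the glutamine transporter SLC1A5 was 0.59 ± 0.12 higher in WT5 than in WT2 (edgeR, adjusted p = 0.0443). Against WT5, SLC1A5, SLC3A2 and SLC7A1 were lower in WT37 by 0.72, 0.52 and 0.53 on the log2 scale. When each of the 6 libraries was left out in turn, the clone effects of SLC7A5 and SLC1A5 and the WT5 call of SLC7A5 were kept in all 6 settings. The clone effect of SLC7A11 was lost without any 1 WT2 or WT37 library, and that of SLC7A1 without either WT37 library or without the library with DOX of WT2 or WT5. The call of SLC7A5 for WT37 over WT2 was lost without the WT2 library with DOX or without either WT37 library. That of SLC7A11 in the same pair was lost without any 1 WT2 or WT37 library. The SLC1A5 call for WT5 over WT2 was lost without either WT2 library or the WT5 library with DOX. The lower level of SLC1A5 in WT37 was lost without the WT37 library with DOX, and those of SLC3A2 and SLC7A1 without either WT37 library or the WT5 library with DOX.

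The genes upstream of ATF4 stood near the share of all tested genes. Of 19 genes for the eIF2 kinases, eIF2, eIF2B and their regulators, 0 had a clone effect by edgeR (2 at an unadjusted p under 0.05), against 6.84% of all tested genes, and both WT2 libraries were below the other 4 in 2 of them (10.5%), against 13.7%. Their median log2 fold changes over WT2 were 0.0065 in WT5 and 0.067 in WT37. Of 12 further ATF4 targets 3 had a clone effect, in both directions: VEGFA was 0.68 ± 0.17 higher in WT37 than in WT2, NIBAN1 was lower by 0.82 (SE 0.17) in the same pair, and KLHL24 was 1.81 ± 0.36 higher in WT37 than in WT5. SQSTM1 was lower in WT37 than in WT2 by 0.50 (SE 0.12). Among other serine, one-carbon and proline enzymes MTHFD2L and ALDH4A1 had a clone effect, and among 10 mitochondrial chaperones and proteases SPG7 did, and RARS1 among the other cytosolic synthetases was lower in WT37 than in WT5. Of these genes MTHFD2L kept its clone effect with each of the 6 libraries left out in turn, while the call of RARS1 was lost in every one. The others lost theirs without the WT37 library with DOX, and VEGFA, SQSTM1, SPG7 and the NIBAN1 difference from WT2 were also lost without the WT2 library with DOX.

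With DOX, few members were called. Without a clone term, edgeR called 0 of 11732 genes (0%; 709 genes, 6.04%, at an unadjusted p under 0.05) and 0 of the 34 tested members, of which ATF3, JDP2, LARS1 and PHGDH were at an unadjusted p under 0.05. DESeq2 called 57 genes and 0 members, and limma-voom called 0 of either. With the clone as a block, edgeR called 152 genes (1.3%), 77 higher with DOX (0.656%) and 75 lower (0.639%). It called 2 tested members, PHGDH and JDP2, both higher. In that fit 9 of the 34 tested members were at an unadjusted p under 0.05, against 12.9% of all tested genes. The members' median log2 fold change was 0.15 in both fits, against 0.0070 over all genes without the block, and it was -0.020 when the WT5 library with DOX was left out of the fit without the block.

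PHGDH, at the levels given above, had a log2 ratio of CPM with DOX over without of 0.55 in WT2, 0.71 for WT5 and 0.85 for WT37. Over the clones the mean rose from 78.7 ± 17.7 CPM to 130.04 ± 37.8 CPM (SD over 3 clones), and the groups overlapped through WT2. The blocked log2 fold change was 0.67 ± 0.10 (edgeR, adjusted p = 0.0118), and without the block it was 0.68 ± 0.22 (edgeR, adjusted p = 0.634).

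JDP2, which encodes a leucine zipper repressor of the AP-1 family, was at 14.0 CPM without and 20.05 CPM with DOX in WT2, 19.5 and 30.7 CPM in WT5, and 15.6 and 31.7 CPM in WT37. All 3 libraries with DOX lay above all 3 without, a pattern that 6.55% of tested genes had. The blocked log2 fold change was 0.71 ± 0.15 (edgeR, adjusted p = 0.0433), and the call was lost without the block (0.71 ± 0.20, edgeR adjusted p = 0.527) and when DESeq2 was used with the block. Leaving out WT2 or WT37 ended the calls of both PHGDH and JDP2, so that 0 members were called, and leaving out WT5 raised the number called to 4.

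Direction was shared more often than the calls. The level was higher with DOX in all 3 clones in 15 of the 34 tested members (44.1%), against 21.3% of tested genes, and lower in all 3 in ATF3, SHMT2, TRIB3 and WARS1 (11.8%), against 13.8%. This pattern was also chosen after the levels had been seen, and the single libraries behind it carry no test. The 15 were ATF4, DDIT3, ATF5, JDP2, CHAC1, SESN2, ASNS, PHGDH, PSAT1, AARS1, CARS1, IARS1, LARS1, NARS1 and SARS1.

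ATF4 itself was 0.19 ± 0.093 on the log2 scale above its level without DOX in the blocked fit and did not pass (edgeR, adjusted p = 0.405). The log2 ratio of its CPM was 0.37 in WT5, above the 0.18 of WT2 and the 0.14 of WT37. CHAC1 gave 0.57 ± 0.18 (edgeR, adjusted p = 0.171), and ASNS gave 0.24 ± 0.10 (edgeR, adjusted p = 0.324). PSAT1, SESN2 and DDIT3 gave 0.18 ± 0.10, 0.16 ± 0.12 and 0.70 ± 0.39, none of them called.

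TRIB3 and ATF3 went the other way. TRIB3 had a log2 ratio of -0.59 in WT37, below the -0.33 of WT2 and the -0.22 of WT5, and its blocked log2 fold change of -0.42 ± 0.11 did not pass (edgeR, adjusted p = 0.0845). ATF3, which encodes a stress-induced repressor, had 31 and 19 reads in WT2, 40 and 34 in WT5, and 47 and 27 in WT37. All 3 libraries with DOX lay below all 3 without, as in 4.56% of tested genes, and the blocked log2 fold change was -0.74 ± 0.26 (edgeR, adjusted p = 0.226).

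**Figure D4:**
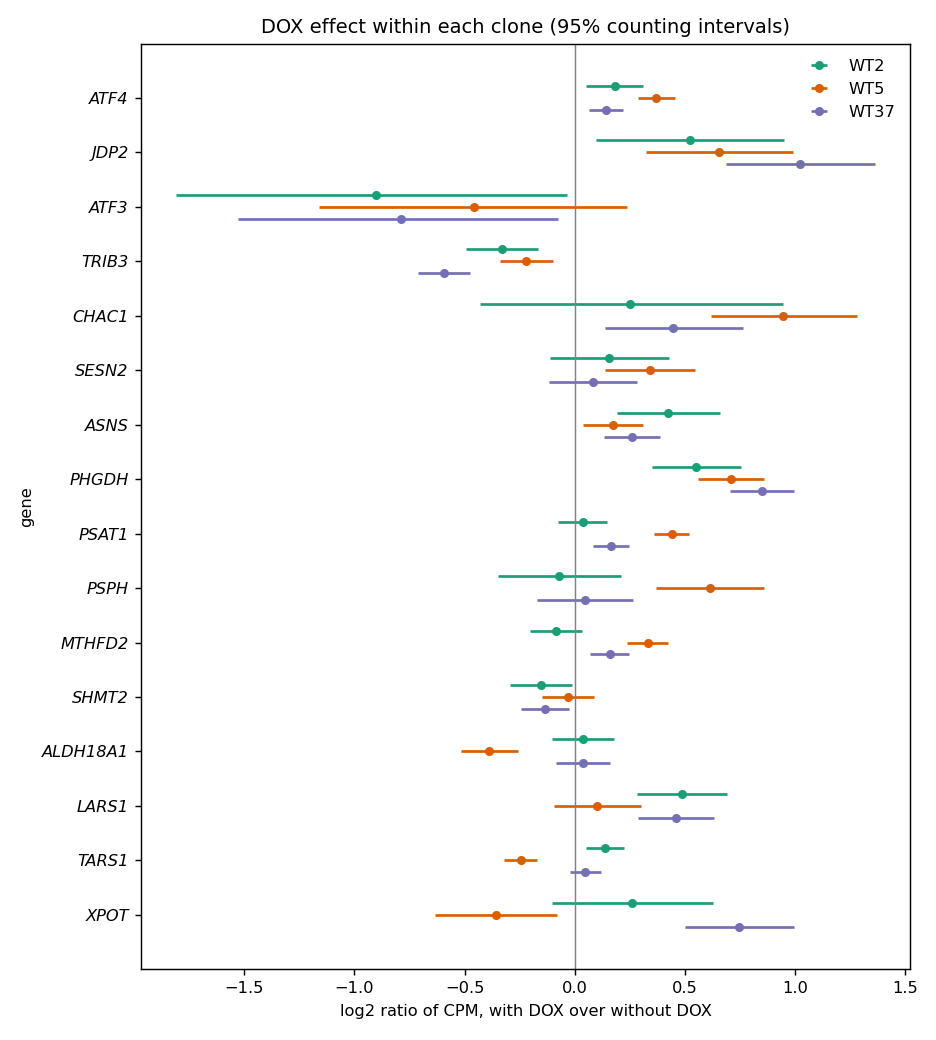
Log2 ratio of CPM with DOX over without DOX (horizontal axis) within each clone for 16 members, 1 library against 1, with bars for 95% intervals that cover counting error only. PHGDH and JDP2 lie to the right of 0 in every clone and TRIB3 to the left, while XPOT and TARS1 point in opposite directions in different clones.

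Several enzymes of the programme had a DOX ratio that was largest in WT5. For PSPH it was 0.61 there (log2), against -0.069 in WT2 and 0.046 in WT37, and for MTHFD2 it was 0.33, against -0.087 and 0.16. Without WT5 the blocked values of these genes turned from 0.16 to -0.062 for PSPH and from 0.099 to -0.015 for MTHFD2. SHMT2 was -0.14 ± 0.091 in the blocked fit (edgeR, adjusted p = 0.553). Among the synthetases AARS1 and LARS1 had all 3 libraries with DOX above all 3 without, at 0.22 ± 0.11 and 0.31 ± 0.11 in the blocked fit (edgeR, adjusted p = 0.418 and 0.233).

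Of the related lists, 0 genes were called with DOX by edgeR in either fit, among 19 eIF2 genes, 10 transporters, 8 other cytosolic and 17 mitochondrial synthetases, 12 further targets, 13 other enzymes and 10 mitochondrial chaperones and proteases. Of all tested genes 0% were called without the block and 1.3% with it, so that the count of 0 is near those shares. At an unadjusted p under 0.05, which 12.9% of tested genes reached, the blocked fit had 1, 1, 0, 0, 2, 2 and 1 genes of these lists, in that order. In bulk libraries fewer cells of a kind and less RNA per cell cannot be told apart. The epithelial marker sum fell with DOX in each clone, the CD14 level was lower in WT2 like most members, and the 2 WT2 libraries had 5440093 and 6234798 reads in genes where the other 4 had 6053671 to 7164426. The part of these in the members' values was not tested.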

How the data were processed

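Messenger RNA of 6 DLD-1 libraries was read at the 3' end with a QuantSeq FWD kit, per the labels' protocols. The authors deposited whole-number read counts by Ensembl identifier, with no normalization recorded. The submitters' processing notes name GRCh38 and DESeq2. Aligner, annotation and use of strand are not given in the sources used. Reads given to no gene, 32.2% to 39.8% of each library's total, entered neither library sizes nor tests. The last transcript bases of ASNS, DDIT3, MARS1, DDIT4, PYCR1, MTHFD2, WARS1, ATF5, SHMT2 and CARS1 overlap exons of other genes in GENCODE 29, so their counts are uncertain. The overlap is on the same strand for ASNS (100% of these bases) and ATF5 (8.22%).

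Symbols were looked up in a gene table (22056 identifiers named) and GENCODE 29 (222 more), and 4986 identifiers stayed unnamed. Counts were tested in R 4.3.3 with edgeR 4.0.16 (quasi-likelihood, TMM scaling, filterByExpr, Benjamini-Hochberg over 11732 genes, threshold 0.05). The robust option of the fit and library sizes over all genes were not part of the planned design: 8 combinations of such settings were run, and this one was kept after its counts of calls were seen, because they equal those of an earlier analysis of these data. The non-robust fit is given as an alternative. DESeq2 1.42.0 and limma 3.58.1 (limma-voom), other filters and scalings, and leaving out libraries or clones were further alternatives. Each fit was also run on simulated counts with known changes. The counts simulated for the DOX fits had no clone differences, unlike these data, so they cannot vouch for the DOX fit without a block.

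Deviations from the group means correlated within each clone (r = 0.49, 0.28 and 0.53 across genes), and the design text names the clones as replicates, so the clones pair the samples. Standard errors are approximate, taken from the change and its F statistic. Intervals within a clone are exact conditional binomial at 95% and cover counting error only. Levels with and without DOX are means ± SD over 3 clones. Members and lists were chosen with earlier results of these data known. Values are printed in full for members called in a DOX fit or for clone, and for ATF4, DDIT3, ATF3, TRIB3, CHAC1, SESN2, ASNS, PHGDH, PSAT1, PSPH, SHMT2 and MTHFD2 whatever their values; of each related list the called genes are named, at most 4 per comparison. Promoter and motif sequences are from RefSeq, GRCh38.p14; the rank patterns, the group of 12 synthetases and the check of gene ends were chosen after values were seen.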

Additional observations from a re-analysis of the deposited data

Results flagged for a closer look

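TARS1 and XPOT had DOX ratios on opposite sides of 0 in different clones, with counting intervals that exclude 0 on both sides, a criterion set after the values were seen. For TARS1, the threonyl-tRNA synthetase gene, the log2 ratio of CPM with DOX over without was 0.137 in WT2 and -0.245 in WT5. For XPOT, the tRNA exporter gene, it was 0.746 in WT37 and -0.356 in WT5. Each rests on 1 library against 1, and the difference between clones was not tested.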

How the results depend on the processing

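Of 628 values of single genes under the alternatives, 538 kept their direction and side of the threshold, 74 kept direction and lost the call, 6 gained one and 10 turned sign. Depth limits DDIT3, NUPR1 and ATF3 most, with 83, 103 and 198 reads in all. The cause of the changes below was not tested, except that leaving out libraries leaves fewer samples and other filters test other genes; a group left with 1 library is assumed to vary like the others.

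For DOX without a block, 0 genes were called, against 206 with no filter, 57 with DESeq2 and 152 with the replicate block, and 0 to 35 when a library or clone was left out. Members called were 0, against 1 with no filter and 2 with the block. The members' median of 0.15 was 0.14 with no filter and 0.14 with the stricter filter (at least 30 reads in 3 libraries), and -0.020 to 0.24 when libraries were left out. Signs turned for some genes without the block, where leaving out libraries gave ranges of -0.058 to 0.48 for ATF4, -0.13 to 0.51 for ASNS, -0.068 to 0.43 for PSAT1, -0.023 to 0.32 for SESN2, -0.022 to 0.29 for MTHFD2 and -0.063 to 0.30 for PSPH. The values below 0 came without the WT2 library without DOX for ATF4 and ASNS, without the WT5 library with DOX for ATF4, PSAT1, SESN2 and MTHFD2, and without WT5 for MTHFD2 and PSPH. With the clone block the ranges were -0.062 to 0.29 for PSPH and -0.015 to 0.21 for MTHFD2, below 0 without WT5.

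With the clone as a block, 152 genes and 2 members were called, against 518 and 4 with no filter, 1 member with DESeq2, 0 and 0 without the block, 5 to 736 genes and 0 to 4 members when 1 clone was left out, and 183 and 2 with the non-robust fit. The blocked median of 0.15 was 0.13 with the stricter filter and 0.057 to 0.19 without a clone.

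The clone effect, 802 genes and 12 members, gave 1783 genes with no filter, 441 with DESeq2, 248 genes and 6 members without the DOX covariate, 751 and 12 with the non-robust fit, and 129 to 2285 genes and 2 to 18 members with libraries left out. WT5 over WT2, 120 genes and 8 members, gave 346 genes with no filter, 56 and 4 without the covariate, and 54 to 348 genes and 3 to 12 members with libraries left out; its median of 0.41 was 0.43 with no filter and 0.34 to 0.49 with libraries left out. WT37 over WT2, 684 and 10, gave 1244 genes with no filter, 326 and 4 with DESeq2, 191 and 4 without the covariate, and 137 to 2034 genes and 3 to 16 members with libraries left out; its median of 0.30 was 0.25 with the stricter filter and 0.21 to 0.41 with libraries left out. WT37 over WT5, 694 and 3, gave 1294 and 6 with no filter, 319 and 1 with DESeq2, 5 members with DESeq2 size factors, 181 and 1 without the covariate, and 86 to 1702 genes and 0 to 6 members with libraries left out; its median of -0.14 ranged from -0.18 to -0.061. The motif share of 30% was 3.33% with the longer motif.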
